A study of Rattus norvegicus with 48 samples.

Results

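The retina of young female Long-Evans rats was compared between 6 ovariectomized animals and 6 animals given sham surgery. Ovariectomy (OVX) takes away the main source of circulating oestrogen and progesterone, while sham animals keep their ovaries. The 12 libraries were taken by their labels as every retina library of the young age, out of 48 libraries in the series and 24 of retina. The submitters give the age of the young animals as 3 to 4 months, without saying whether at surgery or at dissection. The remaining retina libraries, used here to estimate the spread and for side-by-side values, came from 6 sham and 6 OVX females of the same strain aged 9 to 10 months, called aged here. The labels name no mutation, transgene or drug in any group, and they state neither the time between surgery and dissection nor the cycle phase of sham animals nor hormone levels. Of 32883 genes in the table, 15481 passed a filter on low counts and were tested.

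The neural retina responds to ovarian hormones through oestrogen, progesterone and androgen receptors in neurons and glia, and steroids are also made locally. Photoreceptors have a high energy demand, which they meet largely by aerobic glycolysis with oxidative phosphorylation in the inner segments. Rods make up most cells of the rat retina. Their outer segments are renewed each day by the retinal pigment epithelium, a pigmented layer behind the retina that degrades shed discs in lysosomes and regenerates the visual chromophore. When a retina is peeled away for RNA, some of that layer, the ciliary body, lens or muscle can come with it.

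The libraries held 15004800 to 30737500 counts per sample, and 19290 to 20450 genes were detected in each. Between OVX and sham, neither measure, nor the shares of mitochondrial counts, of counts in loci with provisional symbols or of counts in the 10 most abundant genes, gave a difference past 0.05 by an exact two-sided permutation test over 924 regroupings (p from 0.32 to 0.981). CPM is edgeR's level of a gene relative to the TMM-scaled library total. The rod list summed to between 105328 and 126971 CPM in sham and between 112453 and 119449 CPM in OVX libraries, which fits the label of retina. It had 28 of 30 members above the low-count filter. Passing that filter does not set a tissue apart, as all 30 members of the pigment epithelium list passed it. Below, a level is the mean ± SD of 6 libraries, or the lowest, median and highest of them, and a log2 fold change is OVX minus sham ± SE. In bulk RNA of this kind, fewer cells of a type and less RNA per cell cannot be told apart.

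Few genes separated the OVX from the sham retina at the young age. The quasi-likelihood F test of edgeR called 3 of 15481 genes at a Benjamini-Hochberg adjusted p under 0.05, which is 0.0194% of those tested. Tfeb and Coq10b rose and Pfkp fell. Over all genes 49.7% had higher means in OVX, the median absolute log2 fold change was 0.075 and the median standard error 0.083, and 95% of genes had an absolute log2 fold change under 0.47. An unadjusted p under 0.05 was reached by 943 genes that were higher in OVX (6.09%) and 864 that were lower (5.58%), where 774 of both kinds together are expected from p-values spread evenly. Each gene list below is set against these shares and the median log2 fold change of all genes, -0.00072. Every OVX library lay above every sham library in 109 genes (0.704%) and below every sham library in 117 genes (0.756%).

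Tfeb, a transcription factor that switches on lysosomal and autophagy genes, rose by 33.5% in OVX. Its levels in sham libraries were 9.88, 11.4 and 12.3 CPM (lowest, median and highest of 6). In OVX libraries they were 12.9, 15.2 and 16.1 CPM. The groups did not overlap, and OVX animal 7 was the library closest to the sham range. The log2 fold change, OVX minus sham, was 0.42 ± 0.07 (SE) with an adjusted p of 0.0322. Among aged animals Tfeb averaged 13.2 ± 1.14 CPM in sham and 14.8 ± 1.09 CPM in OVX.

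Coq10b, a mitochondrial protein that binds coenzyme Q and is needed for normal respiration, rose by 32.7%. Sham libraries had 23.4, 26.2 and 30.2 CPM. OVX libraries had 30.2, 35.8 and 39.2 CPM. The highest sham library, animal 5, all but met the lowest OVX libraries, animals 11 and 12, and the other OVX libraries stood clear of the sham range. The log2 fold change was 0.41 ± 0.07 with an adjusted p of 0.0322. Aged sham and aged OVX retinas averaged 28.4 ± 1.96 and 27.3 ± 1.95 CPM, and the difference of the OVX effect between the ages was 0.46 ± 0.099 on the log2 scale (interaction adjusted p = 0.117).

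Pfkp, the platelet-type phosphofructokinase that catalyses the committed step of glycolysis, fell by 13.5%. Its sham libraries had 317, 343 and 366 CPM. The OVX libraries had 286, 298 and 306 CPM. All OVX libraries lay below all sham libraries and within a narrower band. The log2 fold change was -0.21 ± 0.037 with an adjusted p of 0.0322, and the aged groups averaged 311 ± 11.9 CPM in sham and 293 ± 11.5 CPM in OVX. The other phosphofructokinases did not pass the test. Pfkm, the muscle type, had -0.072 ± 0.041 on the log2 scale (adjusted p = 0.521) and Pfkl, the liver type, -0.055 ± 0.053 (adjusted p = 0.75).

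These 3 calls depended on the libraries and the fit. When 1 of the 12 young libraries was left out in turn, Tfeb and Coq10b were each called in 3 of 12 runs and Pfkp in 1. Their log2 fold changes stayed between 0.38 and 0.46 for Tfeb, 0.37 and 0.45 for Coq10b and -0.23 and -0.19 for Pfkp. No gene was called without sham animal 1, 2 or 6 or without OVX animal 8, 9 or 10. With the 12 young libraries fitted alone, all 3 had an adjusted p of 0.0554. In the posterior eye of the same young animals the log2 difference was 0.18 ± 0.12 (adjusted p = 0.896) for Tfeb, 0.047 ± 0.11 (adjusted p = 0.999) for Coq10b and -0.37 ± 0.38 (adjusted p = 0.991) for Pfkp. No gene of 17153 differed in its OVX effect between the tissues (0%) by the edgeR test with the animal as a block (unadjusted p under 0.05 in 1024 genes, and 3 genes called without the block).

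**Figure D1:**
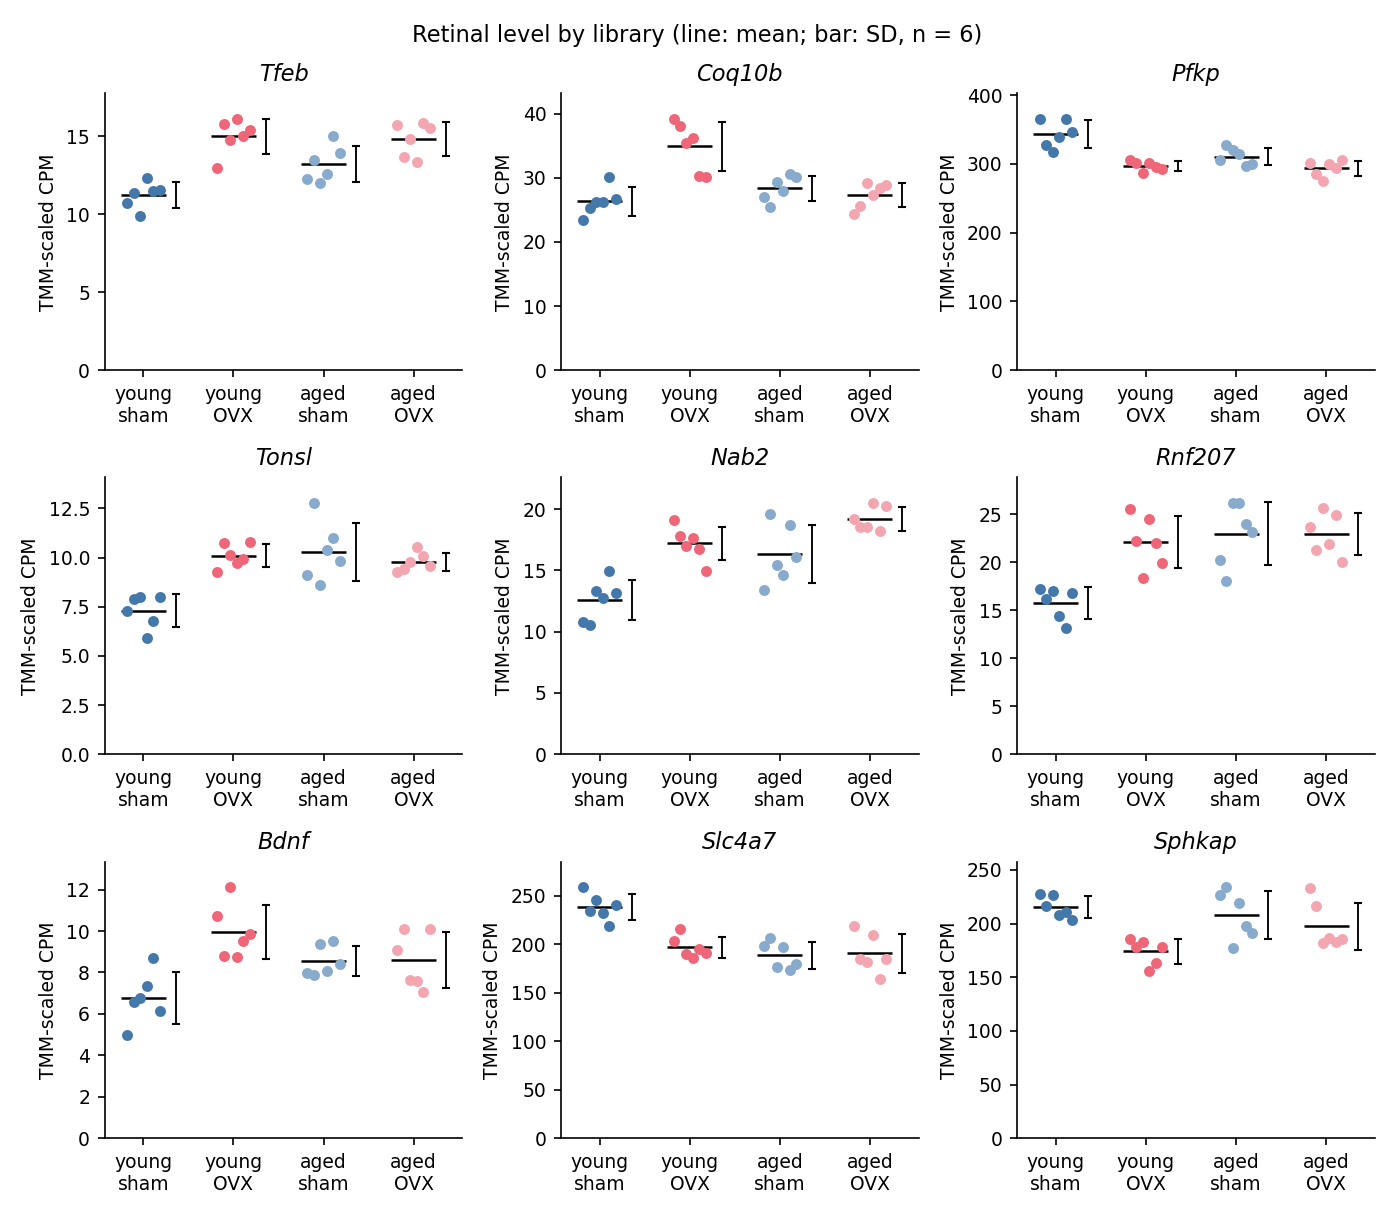
Level of 9 genes in each retina library as TMM-scaled CPM (y axis) in young and aged animals after sham surgery or OVX (x axis); points are libraries, lines are means and bars are the SD of 6. The young OVX points lie wholly above the young sham points for Tfeb, Coq10b, Tonsl, Nab2, Rnf207 and Bdnf and wholly below for Pfkp, Slc4a7 and Sphkap.

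The bases before the start of the 3 called genes are shown because these are the genes that passed the test. They are the 250 bases upstream of the RefSeq gene start in build GRCr8, 5′ to 3′ on the gene's strand, with the NFY box CCAAT (or ATTGG on the other strand) in capitals. Tfeb is at chr9:20703125-20703374 on the minus strand, Coq10b at chr9:64047918-64048167 on the plus strand and Pfkp at chr17:68639563-68639812 on the plus strand.
Tfeb: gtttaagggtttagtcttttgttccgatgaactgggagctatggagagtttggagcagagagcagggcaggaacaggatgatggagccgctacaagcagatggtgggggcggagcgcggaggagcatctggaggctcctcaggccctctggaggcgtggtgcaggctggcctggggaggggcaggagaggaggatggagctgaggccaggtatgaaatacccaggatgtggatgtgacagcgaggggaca
Coq10b: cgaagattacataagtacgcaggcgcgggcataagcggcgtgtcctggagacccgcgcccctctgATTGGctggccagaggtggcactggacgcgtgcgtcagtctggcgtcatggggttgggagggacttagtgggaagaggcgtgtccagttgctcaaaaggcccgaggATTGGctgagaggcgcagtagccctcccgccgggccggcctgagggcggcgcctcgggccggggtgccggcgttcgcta
Pfkp: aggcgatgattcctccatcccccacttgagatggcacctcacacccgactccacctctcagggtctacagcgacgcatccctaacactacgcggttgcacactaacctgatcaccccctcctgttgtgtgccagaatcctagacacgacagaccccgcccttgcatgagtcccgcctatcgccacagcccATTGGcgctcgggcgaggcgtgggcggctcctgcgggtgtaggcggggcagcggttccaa
Coq10b holds 2 NFY boxes, Pfkp 1 and Tfeb none. Of 33469 rat promoter windows of this length 34% hold one, and of 12121 windows of genes tested here 34.1% do. None of the 3 holds the E-box CACGTG (7.7% of windows of tested genes), the cAMP response element TGACGTCA (2.69%) or the AP-1 element TGANTCA (4.37%), each searched on both strands. The palindromic oestrogen response element GGTCANNNTGACC was in 8 of the 33469 windows and in none of those of tested genes. These are matches of letters in a short window and say nothing of binding.

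Tfeb belongs to the small MiT/TFE family, whose members act through shared lysosomal targets and are held in the cytoplasm by the growth regulator mTORC1. Of the relatives, Tfe3 stood at 24.8 ± 1.83 CPM in sham animals and at 23.5 ± 1.57 CPM after OVX, and Mitf, the pigment-cell member, at 8.82 ± 0.82 and 9.79 ± 1.15, neither past the test. The lysosomal and autophagy targets of the family were split in sign. Of 44 tested, 25 had higher means in OVX and 19 lower, with a median log2 fold change of 0.0065, against -0.00072 over all genes. An unadjusted p under 0.05 was reached by 5 upward and 2 downward. Atp6v0e1, a subunit of the proton pump, had a log2 fold change of 0.24 ± 0.077 and Psap, the precursor of the saposins, one of 0.088 ± 0.038, while the pump subunit Atp6v1a had -0.095 ± 0.042.

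Components of mTORC1 and its amino acid sensors gave a median of 0.023 over 25 genes, with 4 upward and 2 downward at the unadjusted level. Mlst8, a subunit shared by both mTOR complexes, averaged 66.6 ± 7.00 CPM in sham animals and 81.5 ± 5.17 CPM after OVX (adjusted p = 0.228). Deptor, an inhibitor of mTOR, averaged 9.27 ± 0.961 and 7.36 ± 0.915 CPM (adjusted p = 0.294). Rragc, a lysosomal GTPase that recruits mTORC1, averaged 92 ± 3.09 and 99.1 ± 4.84 CPM. None of the 25 was called.

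Of 13 genes for the synthesis and handling of coenzyme Q, Coq10b was the 1 member called and the 1 with an unadjusted p under 0.05. Its paralogue Coq10a stood at 41.3 ± 2.04 CPM in sham animals and at 42.6 ± 2.29 CPM after OVX, and the list had a median of 0.034. The respiratory chain, which uses coenzyme Q as its electron carrier, had few members at the unadjusted level. Nuclear subunits had a median of -0.0056 over 37 genes with 0 upward and 1 downward, the latter Uqcrb, a subunit of complex III (-0.14 ± 0.044). Of the 13 mitochondrially encoded subunits tested, 12 had higher means in OVX, with a median of 0.049, and 1 reached the unadjusted level, upward. The mitochondrial share of all counts averaged 1.49% in sham and 1.55% in OVX libraries (p = 0.32 by the exact permutation test). The tricarboxylic acid cycle list had a median of -0.0088 over 25.

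Around Pfkp, most glycolytic genes had slightly lower means in OVX. Of 24 tested, Pfkp included, 18 were lower and 6 higher, with a median of -0.056. At the unadjusted level 5 passed downward, Pfkp included, against 3 upward. Pkm, pyruvate kinase, averaged 3536 ± 290.0 CPM in sham and 3118 ± 181 CPM after OVX (-0.18 ± 0.059, adjusted p = 0.222). The members with the largest positive values, Eno2 and Tpi1, had few counts and are described with the low-level loci. Slc2a1, the glucose transporter of the blood-retina barrier and Müller glia, averaged 238 ± 26.3 and 266 ± 25.8 CPM (adjusted p = 0.408).

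After the called genes, the smallest p-values among well-measured genes with assigned symbols belonged to a small set whose groups did not overlap. Tonsl, which protects stalled replication forks, had 5.89, 7.59 and 8.00 CPM in sham libraries. Its OVX libraries had 9.27, 10.0 and 10.8 CPM, for a log2 fold change of 0.46 ± 0.088 and an adjusted p of 0.0747. Sham animal 4 was the lowest library. Nab2, a corepressor that binds the Egr transcription factors, had 10.6, 12.9 and 14.9 CPM in sham. In OVX it had 15, 17.3 and 19.1 CPM (0.45 ± 0.089, adjusted p = 0.0925). OVX animal 12 and sham animal 5 came close to meeting. Rnf207, a ring finger protein, had 13.1, 16.5 and 17.3 CPM in sham libraries and 18.4, 22.2 and 25.5 CPM in OVX libraries, without overlap (0.48 ± 0.096, adjusted p = 0.0925).

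Bdnf, the brain-derived neurotrophic factor that supports ganglion cells, had 4.99, 6.67 and 8.71 CPM in sham libraries and 8.73, 9.7 and 12.1 CPM in OVX libraries. Only sham animal 5 came near the OVX range. The log2 fold change was 0.56 ± 0.12, with an adjusted p of 0.117 by edgeR and 0.00448 by DESeq2. Of 27 neurotrophic factors and receptors, 4 reached the unadjusted level upward and 1 downward. Cntfr, the ciliary neurotrophic factor receptor, had 0.16 ± 0.054, and Fgf9, a fibroblast growth factor, 0.16 ± 0.062.

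Among the other genes with higher means, Sorbs3, an adaptor of cell adhesions, averaged 36.3 ± 2.77 CPM in sham and 43.4 ± 2.87 CPM after OVX (0.25 ± 0.053). Cry1, a repressor of the circadian clock, averaged 44.2 ± 2.2 and 51.3 ± 2.53 CPM (0.21 ± 0.047). Hmg20b, a subunit of a histone demethylase complex, averaged 21 ± 0.911 and 25.2 ± 2.05 CPM (0.26 ± 0.058). In each of these the 6 OVX libraries lay above the 6 sham libraries, as they did for Mettl7a (0.27 ± 0.062). Cacna2d2, an auxiliary subunit of calcium channels, had groups that overlapped (0.24 ± 0.053). Adjusted p-values ran from 0.117 for Sorbs3 to 0.147 for Mettl7a.

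Among genes with assigned symbols and lower means in OVX, Slc4a7 and Sphkap followed Pfkp in the ranking by p. Slc4a7, a sodium bicarbonate cotransporter of photoreceptors, had 219, 237 and 259 CPM in sham libraries. In OVX libraries it had 186, 193 and 215 CPM (-0.28 ± 0.059, adjusted p = 0.118). The groups did not overlap. Sphkap, an anchoring protein of protein kinase A, had 203, 213 and 228 CPM in sham and 155, 178 and 186 CPM in OVX (-0.31 ± 0.068, adjusted p = 0.128). It was 1 of 3 genes called when the 12 young libraries were fitted alone. Ikzf2, a zinc finger transcription factor, averaged 15.4 ± 1.78 CPM in sham and 11 ± 1.42 CPM after OVX (-0.48 ± 0.11).

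Further genes of that ranking had higher adjusted p-values. Mccc1, a subunit of the leucine-degrading methylcrotonyl-CoA carboxylase, had a log2 fold change of -0.22 ± 0.052. Golgb1, the Golgi protein giantin, had -0.18 ± 0.044 and Arf3, a small GTPase of the Golgi, -0.26 ± 0.067. Tmem231, a protein of the ciliary transition zone, had -0.17 ± 0.043. The groups did not overlap for Mccc1, Arf3 or the zinc finger gene Zfp113 (-0.36 ± 0.086), and overlapped for Golgb1, Tmem231, the ubiquitin ligase March1 (-0.25 ± 0.062) and the syntaxin-binding Stxbp6 (-0.47 ± 0.12). Their adjusted p-values ran from 0.147 to 0.155.

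In Rnf207, Slc4a7 and Tonsl, singled out after their values were seen, the young sham mean lay apart from the other 3 group means. Rnf207 averaged 15.8 ± 1.65 CPM after young sham surgery and 22.1 ± 2.7 after young OVX, against 23 ± 3.29 in aged sham and 23 ± 2.22 in aged OVX animals. Slc4a7 averaged 238 ± 13.5, 197 ± 10.9, 189 ± 13.8 and 191 ± 19.9 CPM in the same order. Tonsl averaged 7.3 ± 0.85, 10.1 ± 0.595, 10.3 ± 1.49 and 9.77 ± 0.481 CPM. In Coq10b it was the young OVX mean that lay apart. Comparisons that set young OVX and aged sham each against young sham share the young sham libraries, so these levels are given side by side without a test. Across genes, the OVX effects of the young and the aged retina, which share no library, had a Pearson correlation of 0.038. That value is over genes, which are not independent replicates.

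Other ways of fitting the same libraries gave other calls. The fit of the 12 young libraries alone called 3 of 15039 genes (0.0199%), namely Sphkap and the provisional loci AABR07062583.1 and RF00017.19. AABR07062583.1 averaged 51.6 ± 3.94 CPM in sham and 39.5 ± 2.2 in OVX, with no overlap. RF00017.19 averaged 28.9 ± 2.51 and 49.6 ± 9.52 CPM, also with no overlap, and its OVX libraries were the more scattered. DESeq2 on the 24 libraries called 62 of 15481 (0.4%), with 43 higher and 19 lower in OVX. These included Tfeb, Coq10b and Pfkp, and 20 had provisional symbols. They also included Tonsl, Nab2, Rnf207, Bdnf, Slc4a7, Sphkap and Cry1, and adjusted p-values of these by DESeq2 ran from 0.00342 for Nab2 to 0.0152 for Cry1.

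Most photoreceptor and bipolar genes had slightly lower means in OVX. Of 28 rod genes tested, 21 were lower and 7 higher, with a median of -0.045 on the log2 scale (-0.08 without sham animal 4, the library lowest in rod genes). Nr2e3, a transcription factor that represses cone genes in rods, averaged 322 ± 29.6 CPM in sham and 384 ± 32.7 CPM after OVX (0.26 ± 0.073, adjusted p = 0.176). Abca4, the flippase of outer segment discs, averaged 1081 ± 81.1 and 950.3 ± 52.7 CPM, and Rp1, of the photoreceptor axoneme, 1193 ± 53.3 and 1087 ± 44.7 CPM. The OVX libraries lay below all sham libraries for Rp1. Cone genes had 11 of 14 lower and a median of -0.07, with 0 upward and 1 downward at the unadjusted level. Thrb, the thyroid hormone receptor of cones, had -0.12 ± 0.054.

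Bipolar genes had 11 of 16 lower, with a median of -0.066 (-0.04 without sham animal 1, -0.105 without OVX animal 12), and 4 passed the unadjusted level downward against 0 upward. Prkca, the kinase that marks rod bipolar cells, averaged 185 ± 12.2 and 164 ± 9.89 CPM, and Trpm1, the channel that carries their light response, 570.2 ± 39 and 499.9 ± 44.8 CPM (adjusted p = 0.392).

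Amacrine genes had a median of -0.0033 over 21 and ganglion cell genes one of -0.0087 over 19, with no member at the unadjusted level in either list. Horizontal cell genes had a median of 0.087 over 9, 1 of them upward (Slc4a3, 0.087 ± 0.042). Ribbon synapse and transmitter release genes had 18 of 27 lower and a median of -0.031. Elfn1, which organises the rod synapse, had 0.24 ± 0.063, and Stx3, the ribbon synapse syntaxin, -0.12 ± 0.037 (adjusted p = 0.163 and 0.197). Lrit1, a synaptic protein of photoreceptors, stood at 672 ± 32.9 CPM in sham animals and at 612 ± 19.1 CPM after OVX with no overlap.

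Müller glia, the radial glia that span the retina, had members on both sides. Sox2, a transcription factor that keeps these cells in their state, averaged 29.2 ± 3.37 CPM in sham and 35.2 ± 3.29 CPM after OVX (0.27 ± 0.069, adjusted p = 0.157). Hes1, a Notch target, averaged 12.2 ± 1.4 and 16.6 ± 2.1 CPM (0.44 ± 0.12, adjusted p = 0.173). Aqp4, the water channel of their end feet, averaged 96 ± 5.34 and 83.1 ± 4.91 CPM, and the groups did not overlap (-0.21 ± 0.063). Gpr37, an orphan receptor, averaged 158 ± 5.14 and 142 ± 9.32 CPM, again without overlap. Of 20 tested the median was -0.0048. Gfap, which reactive glia raise, stood at 24.7 ± 2.83 CPM in sham animals and at 21.5 ± 5.4 CPM after OVX (adjusted p = 0.769), and the astrocyte and gliosis list had a median of 0.018 over 18.

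Microglial and macrophage genes were few in counts. Of 21 tested, 16 had higher means in OVX, with a median of 0.095 (0.045 without OVX animal 8). Fcer1g, an immune receptor chain, averaged 3.72 ± 0.497 CPM in sham and 4.85 ± 0.542 in OVX, and its groups did not overlap. Itgam, the CD11b integrin of myeloid cells, had the lower mean in OVX, with 2.65 ± 0.502 and 1.63 ± 0.367 CPM (-0.69 ± 0.21, adjusted p = 0.2). Endothelial genes had a median of 0.093 over 19 (0.047 without OVX animal 12), with 4 upward at the unadjusted level, among them Sox18, an endothelial transcription factor (0.55 ± 0.20), and Flt1, a receptor for vascular growth factor (0.28 ± 0.11). Pericyte and smooth muscle genes had a median of 0.17 over 13 (0.11 without sham animal 5), with Vtn, vitronectin, at 0.31 ± 0.12.

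Of the lists described with a positive median, that of the pigment epithelium had the largest. Of 30 tested, 24 had higher means in OVX, the median was 0.49, and 14 reached the unadjusted level upward against 0 downward. None was called. The median was 0.269 without the libraries of animals 2 and 8, which are described with the muscle genes. All 30 members of the list passed the low-count filter. The summed level of the list ran from 1311 to 1802 CPM in sham libraries and from 1545 to 2186 CPM in OVX libraries, so the groups overlapped. Ptgds, prostaglandin D synthase, averaged 246 ± 39.1 and 311 ± 20.6 CPM (0.34 ± 0.10, adjusted p = 0.204) and Stra6, the receptor for retinol-binding protein, 12 ± 3.02 and 18.5 ± 3.42 CPM (0.62 ± 0.20). Melanocyte and pigment genes had 13 of 15 higher and a median of 0.39, with summed levels of 117 to 161 CPM in sham and 137 to 222 CPM in OVX libraries. Pmel and Mitf are members of this list and of the pigment epithelium list. Mlana, a melanosome protein, averaged 0.969 ± 0.249 and 2.3 ± 1.2 CPM (1.23 ± 0.29, adjusted p = 0.147), and Tyrp1, an enzyme of melanin synthesis, 24.9 ± 10.0 and 41.2 ± 12.5 CPM.

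Genes of the pigment epithelium and neighbouring epithelia also differed in their OVX effect between the ages. The pigment epithelium list had a median of -0.36 in the aged retina. The interaction test, the OVX effect at the young age minus that at the older age, called 7 of 15481 genes (0.0452%). They were Myoc, Rgr, Ttr, Pon1, Rpe65, Tf and the provisional locus LOC102555924. Rgr, a photoisomerase of the pigment epithelium, had 22.1, 35.7 and 55 CPM in young sham libraries. In young OVX libraries it had 35, 69.5 and 90.1 CPM. OVX animal 12 lay inside the sham range and the other OVX libraries lay above it. In the aged retina Rgr averaged 63.4 ± 31.7 CPM in sham and 23.9 ± 8.00 CPM in OVX, and the interaction was 2.36 ± 0.38 on the log2 scale (adjusted p = 0.0127).

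Rpe65, the isomerase of the visual cycle, had 10.7, 16.2 and 22.8 CPM in young sham libraries and 17.2, 30.1 and 38.5 CPM in young OVX libraries. Again OVX animal 12 was the lowest of its group. The aged groups averaged 27.7 ± 15.3 CPM in sham and 11.4 ± 4.67 CPM in OVX (interaction 2.09 ± 0.39, adjusted p = 0.0406). Ttr, transthyretin, which the pigment epithelium and ciliary body secrete, averaged 85.3 ± 33.2 CPM in young sham and 158 ± 40.6 in young OVX against 146 ± 90.5 and 50.5 ± 13.7 CPM in the aged groups (interaction adjusted p = 0.0138). Myoc, myocilin of the ciliary body and sclera, averaged 13 ± 4.54 and 23.9 ± 8.8 CPM in young sham and OVX and 23.3 ± 11.7 and 6.31 ± 2.24 CPM in aged sham and OVX (interaction adjusted p = 0.00895). LOC102555924 had the opposite pattern, at 2.24 ± 0.359 and 1.14 ± 0.516 CPM in the young groups and 1.41 ± 0.535 and 2.48 ± 0.317 CPM in the aged groups (interaction -1.80 ± 0.33, adjusted p = 0.0321). The calls of Myoc, Pon1, Rgr and Ttr held in each of 24 runs with 1 retina library left out. LOC102555924 was called in 10 of them, Rpe65 in 9 and Tf in 6.

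**Figure D2:**
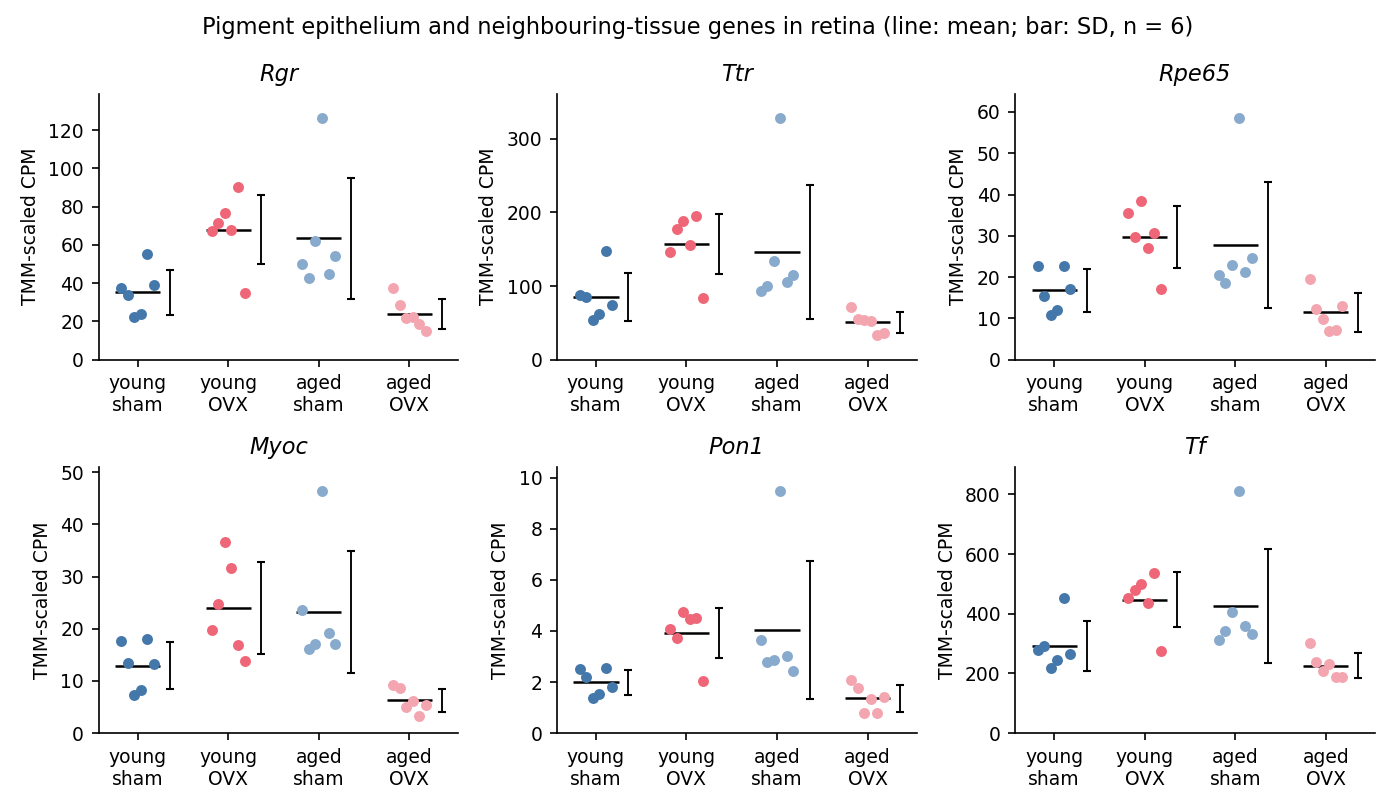
Level of 6 of the 7 genes whose OVX effect differed between ages, as TMM-scaled CPM (y axis) in each retina library by group (x axis); points are libraries, lines are means and bars are the SD of 6. Young OVX means exceed young sham means and aged OVX means lie below aged sham means, with young OVX animal 12 low and 1 aged sham library far above its group.

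Most collagen, complement and fibroblast genes also had higher means in OVX. Fibrillar and associated collagens had 17 of 20 higher and a median of 0.26, complement genes 16 of 18 and 0.14, and ciliary body and iris genes 10 of 16 and 0.17. The collagen list shares Col8a2, and the ciliary body and iris list Pon1, with the pigment epithelium list. The complement median was 0.075 without OVX animal 11, and that of ciliary body and iris 0.056 without OVX animal 8 and -0.0066 without animals 2 and 8. Genes of scleral and choroidal fibroblasts had 8 of 10 higher and a median of 0.22, and basement membrane genes 17 of 23 and 0.097, which were 0.041 and -0.058 without animals 2 and 8. Col8a1, a short-chain collagen, averaged 14.7 ± 5.4 CPM in sham animals and 22.7 ± 3.31 CPM after OVX (adjusted p = 0.227). With the level of the pigment epithelium list as a covariate, the collagen median was 0.071 and the complement median -0.024. Under the same covariate no gene was called, and Tfeb had an adjusted p of 0.215, Coq10b 0.216 and Pfkp 0.107, with log2 fold changes of 0.36, 0.31 and -0.24. What part the pigment epithelium level has in the calls was not tested beyond this covariate.

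Proteoglycans and matricellular proteins had a median of 0.12 over 36, -0.049 with that covariate and 0.033 without OVX animal 8. Thbs1, thrombospondin, averaged 2.7 ± 0.487 CPM in sham and 4.43 ± 0.838 in OVX with no overlap (0.72 ± 0.21, adjusted p = 0.183). Hapln1, a link protein of hyaluronan, averaged 1.46 ± 0.401 and 2.22 ± 0.371 CPM. Tnr, tenascin R, averaged 80.9 ± 7.11 and 62 ± 15.2 CPM. Matrix proteases and inhibitors had a median of 0.063 over 39 (0.018 without OVX animal 8). Adamts1, a protease of proteoglycans, averaged 51.4 ± 3.79 and 41.5 ± 4.03 CPM (-0.31 ± 0.088, adjusted p = 0.181).

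Interferon-induced genes had 38 of 40 members higher in OVX, but 1 of them reached the unadjusted level. The median was 0.20, 0.069 with the pigment epithelium covariate, 0.106 without OVX animal 8 and 0.092 without both sham animal 2 and OVX animal 8. Ifit3, an antiviral effector, averaged 1.85 ± 0.713 CPM in sham animals and 2.82 ± 1.19 CPM after OVX (adjusted p = 0.499). Antigen presentation genes had 13 of 17 higher and a median of 0.13, or 0.029 with that covariate. RT1-CE5, a class I histocompatibility gene with near-identical relatives, averaged 11.1 ± 1.46 and 15.5 ± 2.06 CPM, so the gene to which these counts belong is uncertain.

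Muscle genes stood high in 2 libraries. The skeletal muscle list summed to 521 CPM in sham animal 2 against 50 to 63 CPM in the other sham libraries, and to 132 CPM in OVX animal 8 against 57 to 64 CPM in the other OVX libraries. Mb, myoglobin, stood at 19.6 CPM in sham animal 2 and at or under 1.08 CPM in every other young library. The list median was -0.80 over 13 genes and 0.058 without those 2 libraries. Leaving out both also left no gene called, with an adjusted p of 0.17 for each of Tfeb, Coq10b and Pfkp and log2 fold changes of 0.40, 0.37 and -0.23 from fewer samples. Lens genes summed to between 5658 and 66236 CPM in sham libraries and between 16111 and 69131 CPM in OVX libraries, and with the lens level as a covariate 4 genes were called, including the same 3.

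Most genes of cholesterol synthesis and uptake had lower means in OVX. Of 24 tested, 20 were lower, 8 reached the unadjusted level downward and 0 upward, and the median was -0.087. It was -0.10 with that covariate and -0.095 without the libraries of animals 2 and 8. Insig1, a sterol sensor that restrains the pathway, had 175, 189 and 202 CPM in sham libraries. In OVX libraries it had 149.7, 162 and 191 CPM (-0.20 ± 0.056, adjusted p = 0.173). OVX animal 11 lay within the sham range and the other OVX libraries below it. Fdft1, squalene synthase, had an adjusted p of 0.16 by edgeR and 0.0495 by DESeq2 (-0.15 ± 0.038).

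Fatty acid synthesis genes had a median of -0.041 over 16, with Acaca, acetyl-CoA carboxylase, at -0.26 ± 0.12 (adjusted p = 0.402).

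Immediate early genes, which neurons switch on within minutes of activity, were scattered. Egr1, an activity-induced transcription factor, had 91.7, 129 and 289.9 CPM in sham libraries. In OVX libraries it had 31.9, 61.4 and 85.7 CPM. The groups did not overlap, and sham animal 1 was far above the rest. The log2 fold change was -1.32 ± 0.35 with an adjusted p of 0.168. Fos, a partner of the AP-1 complex, averaged 68.4 ± 14.1 CPM in sham and 41.8 ± 12.8 CPM after OVX (-0.71 ± 0.23, adjusted p = 0.227). Npas4, a neuronal activity factor, averaged 2.16 ± 0.683 and 3.26 ± 0.932 CPM (0.59 ± 0.24). The list of 29 had a median of -0.034, with 2 upward and 4 downward at the unadjusted level, and Nab2, a repressor of Egr1 activity, was 1 of those upward.

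The circadian clock list had a median of 0.006 over 22. Beside Cry1, the period gene Per1 averaged 44.5 ± 4.3 CPM in sham and 51.4 ± 3.76 CPM after OVX (0.21 ± 0.083). Rorb, a nuclear receptor of photoreceptors and the clock, averaged 142 ± 8.37 and 108 ± 18.9 CPM (-0.39 ± 0.12, adjusted p = 0.2). Nr1d1, the clock repressor Rev-erb alpha, averaged 238 ± 18.8 and 222 ± 2.27 CPM. The labels give no time of day for the dissections.

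Receptors for the hormones that ovariectomy removes were measured at low counts and none passed the test. Esr1, the oestrogen receptor alpha, averaged 2.16 ± 0.441 CPM in sham animals and 1.88 ± 0.553 CPM after OVX (adjusted p = 0.738). Esr2, the beta receptor, averaged 2.29 ± 0.473 and 1.82 ± 0.300 CPM (adjusted p = 0.61). Gper1, the membrane oestrogen receptor, averaged 1.63 ± 0.43 and 1.76 ± 0.300 CPM, and Pgr, the progesterone receptor and a classical oestrogen target, 1.1 ± 0.164 and 1.08 ± 0.332 CPM. The groups overlapped for all 4. Of 23 steroid and related receptors the median was -0.051, but 0.036 without OVX animal 7 and 0.013 without OVX animal 12.

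Genes known elsewhere to respond to oestrogen had a median of -0.029 over 22, with 1 upward and 2 downward at the unadjusted level. Vegfa, the vascular growth factor, had 214, 223 and 244 CPM in sham libraries and 194, 208 and 212 CPM in OVX libraries. The groups did not overlap (-0.14 ± 0.048, adjusted p = 0.257). Nrip1, a corepressor of nuclear receptors, averaged 73.3 ± 1.98 and 64.4 ± 3.73 CPM, also without overlap. Steroid synthesis genes had a median of 0.038 over 19, with Stard3, a cholesterol transporter of late endosomes, at 0.16 ± 0.051.

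Glucocorticoid-induced genes had 15 of 21 higher in OVX and a median of 0.13, or -0.029 with the pigment epithelium covariate. Tsc22d3, the glucocorticoid-induced leucine zipper, averaged 85 ± 5.58 and 94 ± 3.72 CPM (0.15 ± 0.055, adjusted p = 0.308). Zbtb16, a zinc finger factor of the same response, averaged 3.96 ± 0.569 and 5.21 ± 0.966 CPM. Antioxidant genes had a median of 0.038 over 33, with Nqo1, a quinone reductase that can use coenzyme Q, at 4.73 ± 0.719 and 6.34 ± 0.748 CPM (0.42 ± 0.14, adjusted p = 0.246). Unfolded protein response genes had a median of 0.03 over 33, and Eif2ak3, a kinase that senses misfolded protein, averaged 57.4 ± 2.87 and 52 ± 2.56 CPM.

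TGF-beta and BMP signalling, which controls matrix genes, had a median of 0.057 over 36, with 0.103 without sham animal 5 and -0.01 with the pigment epithelium covariate. Bmp6, a ligand, averaged 1.58 ± 0.44 CPM in sham and 2.39 ± 0.56 in OVX, the receptor Bmpr2 73.8 ± 4.17 and 62.8 ± 6.2 CPM and the mediator Smad4 106 ± 3.27 and 98.3 ± 3.38 CPM (adjusted p from 0.238 to 0.317). WNT signalling had a median of 0.039 over 28. Its receptors differed in sign, Fzd3 at -0.39 ± 0.12 and Fzd4, which retinal vessels need, at 0.40 ± 0.12. DNA replication and repair genes had a median of 0.0034 over 35, near the median of all genes. Mthfd1l, a mitochondrial folate enzyme, stood at 23.5 ± 3.92 CPM in sham animals and at 23.4 ± 2.24 CPM after OVX.

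**Figure D3:**
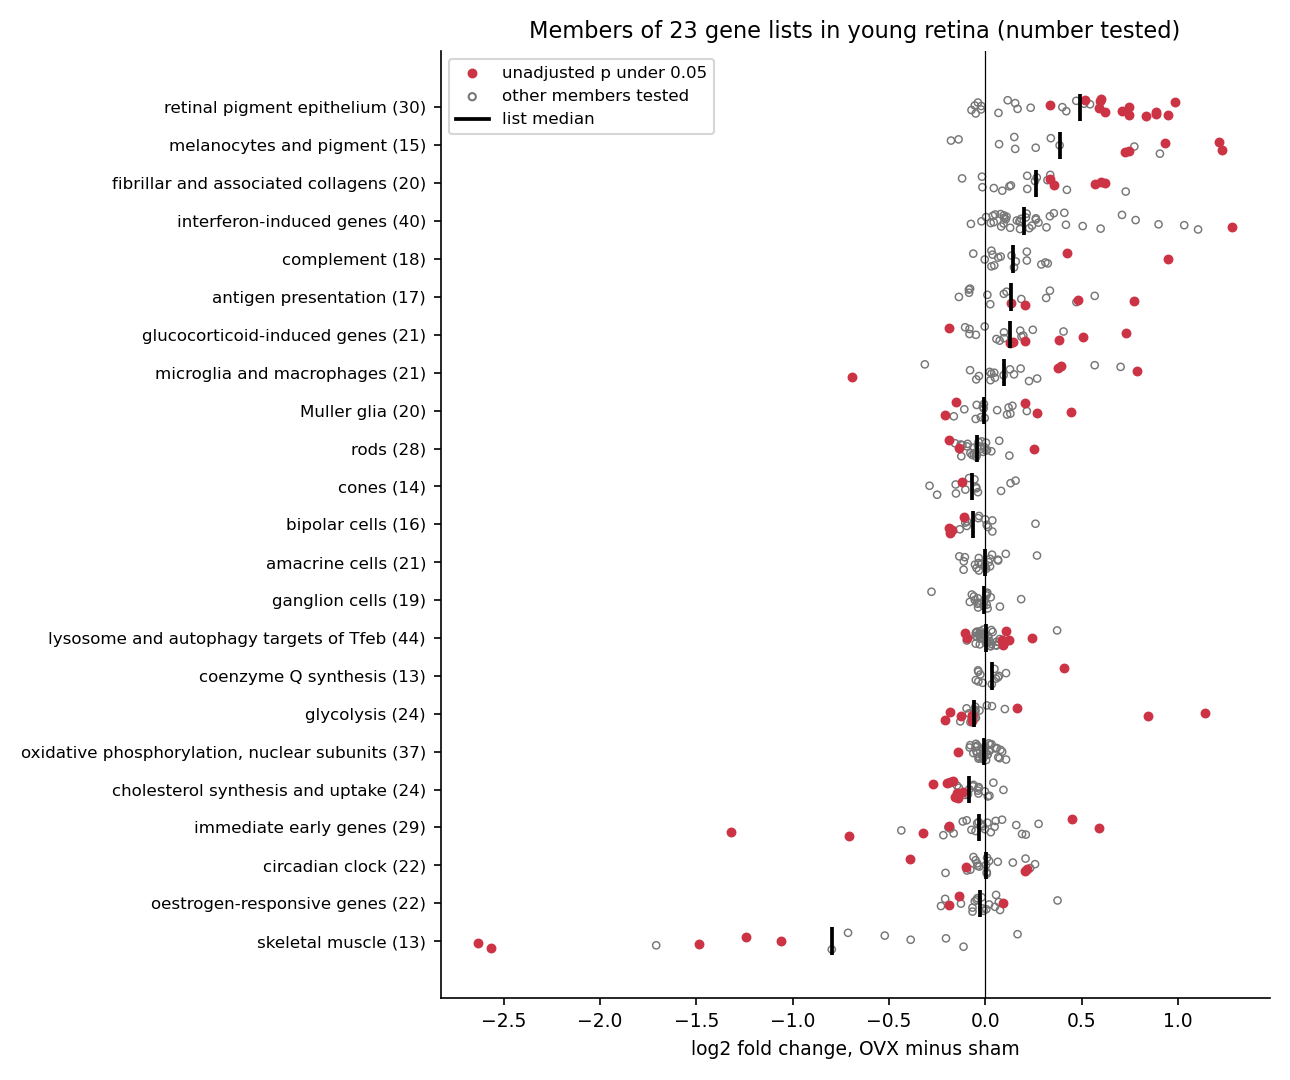
Log2 fold change, OVX minus sham, of each tested member of the gene lists in the young retina (x axis), one list per line with its number tested; filled red points have an unadjusted p under 0.05, open points do not, and the black bar is the list median. Pigment epithelium members lie mostly to the right, and cholesterol members mostly to the left of 0, within a narrower range.

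The largest fold changes came from loci with few counts. Provisional symbols were picked by the form of the name, such as LOC, RGD, AABR or AC with a number. The forms also covered numbered RF and Mir entries, and the shares of counts by library given earlier used fewer forms. Provisional symbols made up 1999 of the genes tested, with a median level of 1.87 CPM against 26.8 CPM for the 13482 genes with assigned symbols. An unadjusted p under 0.05 was reached upward by 227 provisional loci (11.4%) and downward by 105 (5.25%). Genes with assigned symbols gave 716 upward (5.31%) and 759 downward (5.63%). The excess among provisional loci was thus on the OVX side. In the aged retina 73 provisional loci reached this level upward and 35 downward. Genes with assigned symbols gave 424 and 469 there.

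A log2 fold change above 0.9 with an unadjusted p under 0.01 picked 104 genes, of which 78 had provisional symbols. Of the 26 with assigned symbols, Hnrnpc, a splicing factor, had 0.844, 1.41 and 1.71 CPM in sham libraries. Its OVX libraries had 2.33, 2.89 and 5.47 CPM, with OVX animal 9 far above the rest. Eno2, the neuronal enolase, had 4.48, 5.17 and 7.73 CPM in sham and 7.58, 10.5 and 21.5 CPM in OVX libraries (1.14 ± 0.31, adjusted p = 0.169). Tpi1, triosephosphate isomerase, was not among the 26, as its log2 fold change of 0.85 ± 0.28 was under the cut. It averaged 3.43 ± 0.589 and 6.07 ± 2.43 CPM. Genes of this kind often have near-identical processed copies, between which the counting could split reads, so the gene to which these counts belong is uncertain.

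The 104 genes were chosen for their difference, so what follows describes them and tests nothing. In each library their level was taken as the median over genes of the CPM relative to each gene's mean of the 12 young retina libraries. The aged values are thus relative to the libraries that were compared to choose the genes. It ran from 0.557 to 0.678 in young sham libraries and from 0.956 to 2.19 in young OVX libraries, with OVX animal 9 the highest. Aged sham libraries ran from 0.497 to 1.43 and aged OVX libraries from 0.475 to 1.47. The aged libraries of both surgeries thus spanned the range between the young groups. In the posterior eye 94 of the genes were measured, and the base was each gene's mean of the 12 young posterior eye libraries. There the same young animals ran from 0.678 to 1.15 in sham and from 0.812 to 1.42 in OVX, and OVX animal 9 stood at 0.881.

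**Figure D4:**
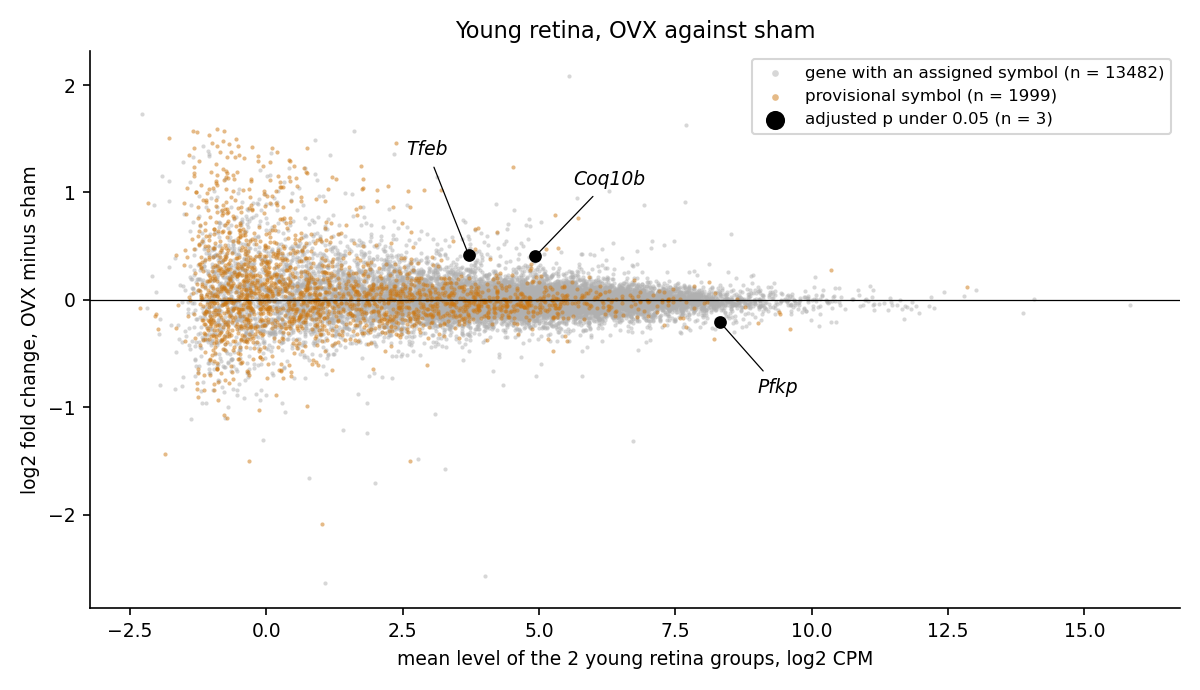
Log2 fold change, OVX minus sham (y axis), against the mean level of the young groups in log2 CPM (x axis) for 15481 genes; grey points have assigned symbols, orange points provisional symbols and black points an adjusted p under 0.05. Of the 1999 orange points 51.9% lie above 0. The lean is in the tail, where 78 had a log2 fold change above 0.9 with an unadjusted p under 0.01. The same cut downward held 1.

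**Figure D5:**
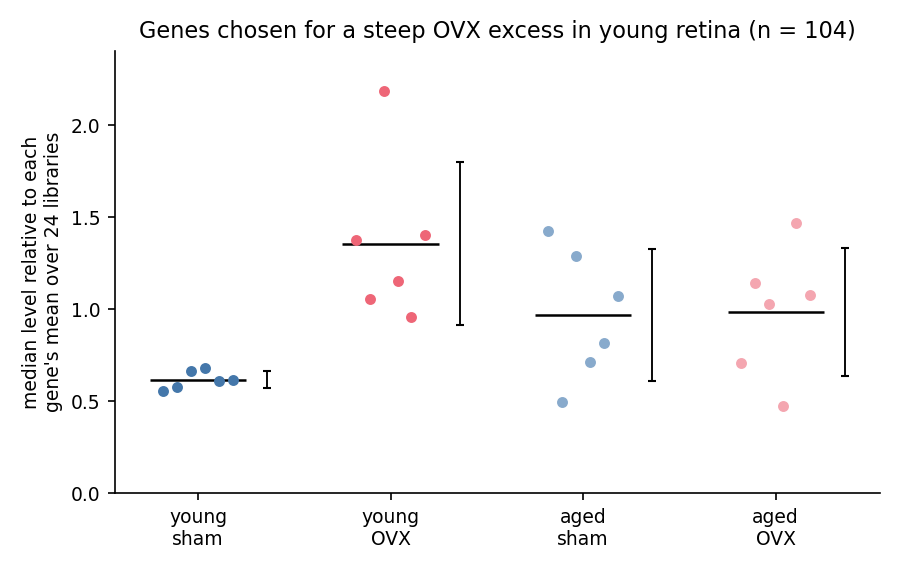
Median relative level of the 104 genes with a log2 fold change above 0.9 and an unadjusted p under 0.01 (y axis) in each retina library by group (x axis); points are libraries, lines are means and bars are the SD of 6. Levels are relative to each gene's mean of the 12 young retina libraries, although the axis label names 24. Young sham libraries lie in a narrow band from 0.557 to 0.678, and the aged libraries spread from 0.475 to 1.47.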

How the data were processed

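Gene expression was measured by RNA sequencing of retina. Per the labels' protocols, samples were kept at room temperature before RNA extraction, and cDNA was amplified from 10 ng of total RNA with a low-input SMART-Seq kit and made into libraries with Nextera XT, a procedure that does not mark strand, so overlapping and antisense genes cannot be told apart. The authors deposited raw counts per gene, and the submitters' processing notes name STAR 2.7.3a, HTSeq, DESeq2 and the build Rnor_6.0. Which annotation and HTSeq settings were used was not given in the sources used here. The labels number the animals, so p-values measure the spread between animals.

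Counts were analysed in edgeR 4.0.16 under R 4.3.3 with filterByExpr, TMM scaling, 4 group means over 24 retina libraries and quasi-likelihood F tests, two-sided, adjusted by Benjamini-Hochberg over all genes tested. The SE was taken from each log2 fold change and its F value and is approximate. DESeq2 1.42.0, limma-voom 3.58.1, a fit of 12 libraries, other scalings and filters, covariates, a replicate block and leaving out libraries were alternatives. The fit across tissues used all 48 libraries with the animal as a block. The scripts were tested on simulated counts.

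Named genes were those called, the 12 higher and 12 lower with assigned symbols and the smallest p at 2 CPM or more, up to 4 members with the smallest p of each list described, genes called with 12 libraries or in the interaction, and a fixed set of genes taken whatever their values. A number of genes named by the rule are not reported here. The comparison, lists and tests were chosen with earlier results of these data known. Lists are described by counts and medians and were not tested. Replicate numbers do not pair animals. Promoter windows came from RefSeq (GRCr8). All 3 called genes matched by symbol, and the 50 bases after the start were left out.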

Additional observations from a re-analysis of the deposited data

Results flagged for a closer look

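A library was set apart where its gap to the nearest library, divided by the range of its group of 6, exceeded Dixon's 95% critical value for that size. This happened in 18 of the 194 groups screened, about 10 of which are expected by chance, and the causes were not tested. Skeletal muscle had the largest ratios, 0.878 for sham animal 2 and 0.883 for OVX animal 8. Sham animal 4 stood low in the rod list (0.661) and in the list of nuclear subunits of oxidative phosphorylation (0.641). Sham animal 5 stood high in Ttr (0.641) and Tf (0.683), with Tf, transferrin, at 453 CPM against 217 to 292 in the other sham libraries. OVX animal 12 stood low in the visual cycle list (0.752), Mitf (0.633) and Pon1 (0.628), with Pon1, a paraoxonase, at 2.05 CPM against 3.74 to 4.74 in the other OVX libraries.

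Sham animal 1 stood high in Egr1 (0.724) and low in Sorbs3 (0.626), at 31.2 CPM against 36.2 to 39.1. Cry1 was low in sham animal 3 (0.663) and Pfkm high in sham animal 2 (0.741). Hnrnpc was high in OVX animal 9 (0.683), LOC102555924 in OVX animal 10 (0.677) and Tfe3 in OVX animal 11 (0.821). The ribbon synapse list was low in OVX animal 8 (0.653) and the circadian clock list in OVX animal 10 (0.66).

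The OVX effect differed between the young and the aged retina in 7 genes by the interaction test of edgeR. The difference, young minus aged on the log2 scale, was 2.76 for Myoc, 2.52 for Pon1, 2.42 for Ttr, 2.36 for Rgr, 2.09 for Rpe65, 1.53 for Tf and -1.80 for LOC102555924. In the aged sham group animal 16 had the highest levels of Rgr (126 CPM), Ttr (329 CPM), Rpe65 (58.6 CPM), Myoc (46.4 CPM), Pon1 (9.47 CPM) and Tf (811 CPM). This library thus raised the aged sham means of all these genes.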

How the results depend on the processing

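The number of genes called between young OVX and sham retina was 3 with limma-voom, RLE or upper quartile scaling, or a minimum of 1 CPM, and these were Tfeb, Coq10b and Pfkp. It was 62 with DESeq2 and 4 with the lens covariate. It was 0 with no filter on low counts (24809 genes, 2394 at an unadjusted p under 0.05, adjusted p = 0.0533 for each of the 3), with the pigment epithelium covariate (1287 genes) and, chosen after seeing the data, without animals 2 and 8 (1375 genes) or with that covariate in the 12 libraries. The 12 libraries alone called 3 other genes. Leaving out 1 library gave 0 to 4, with 0 without sham animals 1, 2 or 6 or OVX animals 8, 9 or 10. A covariate that moves with surgery also takes up part of any effect of surgery. Genes with an effect that differed between ages numbered 22 with DESeq2 and 4 to 13 with 1 library left out. Those with an effect that differed between tissues numbered 3 without the animal block.

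The replicate number as a block, fitted on the 12 young libraries, called 0 genes (2038 at the unadjusted level), with adjusted p = 0.0655 for Tfeb, 0.119 for Coq10b and 0.0735 for Pfkp. The numbers mark different animals. Correlations of same-numbered deviations ran from -0.033 to 0.133, and 1 of 6 sham libraries correlated best with its own number.

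Of the genes named, the sign turned in 6, none of which was called. Gper1 had -0.022 with the pigment epithelium covariate and -0.013 with it in 12 libraries, where Slc2a1 had -0.047. With 1 library left out Pgr ran from -0.15 to 0.061, Mthfd1l from -0.051 to 0.061, Pfkl from -0.098 to 0.0026 (positive only without sham animal 5) and Mb from -2.89 to 0.49 (positive only without sham animal 2). Pgr had 0.036 without animals 2 and 8, and Mthfd1l 0.0094 under the replicate block. The absolute log2 fold change was under 0.31 in 95% of the 13041 genes at 2 CPM or more, against 0.47 in 95% of all genes tested.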

Other observations

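Sox10, the transcription factor of melanocytes and myelinating glia, averaged 0.939 ± 0.206 CPM in sham and 1.79 ± 0.413 in OVX with no overlap between the groups (0.93 ± 0.29, adjusted p = 0.21). The myelin list had a median of 0.051 over 11 genes, and -0.0033 without sham animal 3. Chaperone and heat shock genes had a median of 0.043 over 23. Creld2, a chaperone of the endoplasmic reticulum induced by unfolded protein, averaged 43.3 ± 1.18 and 46.6 ± 1.39 CPM, again with no overlap (0.11 ± 0.044, adjusted p = 0.35). Cytosolic ribosomal proteins had 26 of 34 members higher in OVX with a median of 0.01. Hypoxia response genes had a median of -0.013 over 22 and iron handling genes one of 0.038 over 16. Cell cycle genes had 0.026 over 21 and apoptosis genes 0.012 over 17. Visual cycle genes had 0.073 over 19, with 7 upward and 1 downward at an unadjusted p under 0.05. The visual cycle members with the smallest p, Rgr, Ttr, Stra6 and Rpe65, are also in the pigment epithelium list.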
